A study of Homo sapiens with 3 samples.

Results

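The genes examined were 9 members of the NRF2 antioxidant pathway, chosen by gene symbol from a list: NFE2L2, KEAP1, SLC7A11, GCLC, GCLM, TXNRD1, SRXN1, NQO1 and HMOX1. All 9 were among the 24254 symbols, on 26108 gene rows, of an mRNA-seq table of LX-2 cells, an immortal line derived from human hepatic stellate cells. The groups were LX-2 cells given vehicle, rhFGF19 at 50 ng/mL or rhFGF19 at 100 ng/mL, where rhFGF19 is the recombinant form of the human enterokine FGF19. Each group was 1 library of the same line, with no genetic change named, so there were no replicates and no test could be made. The doses follow the sample titles, since another field of the sample records exchanges the doses of the rhFGF19 libraries and gives 72 and 73 h of stimulation where the series design gives 24 h. Values are FPKM, a level scaled both to transcript length and to the total of the library, and the depth behind them is unknown.

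NRF2, the product of NFE2L2, is a transcription factor that KEAP1 holds in the cytosol and delivers to a ubiquitin ligase for degradation. Oxidants and electrophiles modify cysteines of KEAP1, NRF2 then accumulates, pairs with a small MAF protein in the nucleus and binds antioxidant response elements near genes for glutathione synthesis, thiol reduction, quinone reduction and haem breakdown. Much of this control acts on the NRF2 protein, which mRNA levels do not measure, and oxidants are among the signals to which hepatic stellate cells respond in injured liver. The Gene Ontology terms carried by the table placed 6 of the 9 genes under response to oxidative stress, 4 under cell redox homeostasis and 3 (SLC7A11, GCLC and GCLM) under glutathione metabolic process.

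The core of the antioxidant response element was searched for as TGACNNNGC on both strands in RefSeq promoter windows of GRCh38.p14, which run from 250 bases before an annotated start to 50 bases from it on. Windows were given for 7 of the 9 genes, 10 windows in all, and not for HMOX1 and SLC7A11. The core was found in 4 of the 10 windows, from GCLM, KEAP1 and TXNRD1, against 13.3% of all 35116 windows. The 4 windows that held it are shown from the 120th base before the start to the start base itself, with the matches in capitals. The stretches are chr1:93909430-93909550 on the minus strand for GCLM, chr19:10502771-10502891 on the minus strand for KEAP1, and chr12:104215659-104215779 and chr12:104286912-104287032 on the plus strand for the starts A and B of TXNRD1.
GCLM: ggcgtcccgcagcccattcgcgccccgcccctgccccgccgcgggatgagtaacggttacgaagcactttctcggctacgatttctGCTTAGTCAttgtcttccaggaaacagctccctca
KEAP1: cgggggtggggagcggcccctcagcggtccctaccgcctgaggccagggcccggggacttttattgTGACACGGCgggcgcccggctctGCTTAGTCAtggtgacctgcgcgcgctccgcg
TXNRD1, start A: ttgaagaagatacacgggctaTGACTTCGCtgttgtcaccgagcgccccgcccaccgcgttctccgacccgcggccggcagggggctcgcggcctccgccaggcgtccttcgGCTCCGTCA
TXNRD1, start B: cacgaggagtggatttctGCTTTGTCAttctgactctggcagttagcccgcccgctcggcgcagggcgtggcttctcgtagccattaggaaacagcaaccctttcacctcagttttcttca

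GCLM and KEAP1 shared the same letters, TGACTAAGC on the strand opposite the gene. The first base was 34 bases before the start of GCLM and 31 bases before start A of KEAP1, the start with the lower coordinate. KEAP1 also held TGACACGGC on its own strand, first base 54 before start A. The deposited coordinates of KEAP1 begin at its start B, whose window held no match. TXNRD1 held TGACTTCGC 99 bases before start A, TGACGGAGC from 8 bases before start A to the start base, and TGACAAAGC 102 bases before start B. The AP-1 element, searched for as TGANTCA, shares its first letters with the core and was found in 0 of the 10 windows, against 7.71% of all windows. A match describes letters only, and windows without one (NFE2L2, GCLC, SRXN1, NQO1 and start B of KEAP1) say nothing of elements farther away. The GC content of the windows ran from 53.7% for start B of TXNRD1 to 80.0% for SRXN1, where the median of all windows was 58.7%. Both TXNRD1 windows, with 58.0% for start A, lay below that median, and the windows of the other genes lay above it.

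**Figure D1:**
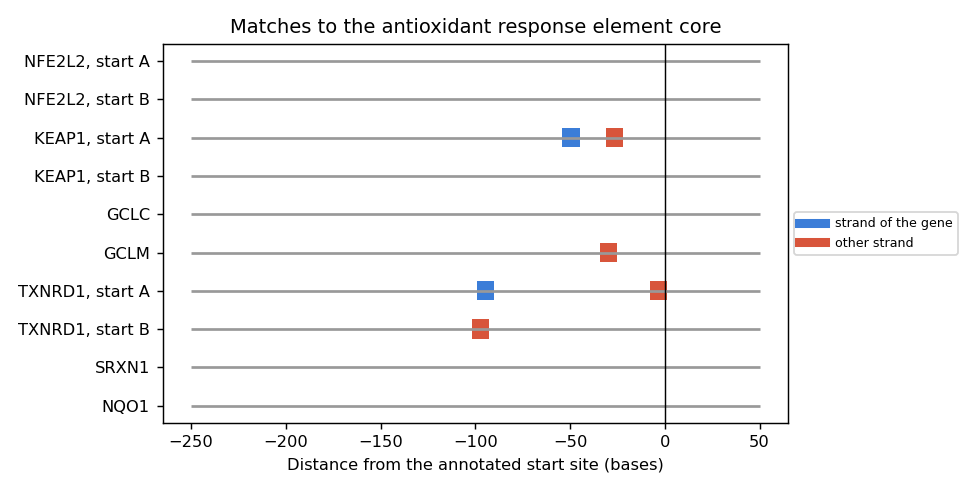
Positions of TGACNNNGC in the 10 RefSeq promoter windows of 7 NRF2 antioxidant genes, as the distance in bases from the annotated start site (0), with matches on the strand of the gene in blue and on the other strand in red; start A is the start with the lower coordinate. The 4 windows with a match belong to KEAP1, GCLM and TXNRD1, and all matches lie between 102 bases before the start and the start base.

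Across the 9 genes, 5 exceeded their vehicle level more than 2-fold at 50 ng/mL: NFE2L2, SLC7A11, GCLC, GCLM and TXNRD1. The same 5 genes were higher at 100 ng/mL, and 0 of the 9 were more than 2-fold lower at either dose. These counts stand against a background in which 39.5% of all 12422 tested symbols were higher at 50 ng/mL and 38.6% at 100 ng/mL, while 1.75% and 1.47% were lower. A tested symbol averaged 0.5 FPKM or more over the 3 libraries, as all 9 genes did. Fold changes are differences of log2(FPKM + 0.1), in which changes of low genes are damped. The 9 genes had median log2 fold changes of 1.15 at 50 ng/mL and 1.14 at the higher dose, where all tested symbols had medians of 0.62 and 0.62. Both comparisons share the 1 vehicle library, so they are not independent of each other.

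The fold changes against vehicle depended on base composition. Over 12397 tested symbols with known transcripts, the Spearman correlation of the log2 fold change with transcript GC content was -0.77 at either dose, and over the 9 genes it was -0.73 and -0.62, with all points from the same libraries. Each such fold change of the 9 genes is therefore also given as its distance from the loess trend on GC content, called GC-adjusted below. It compares a gene with genes of like composition. For the wider lists below, adjusted values are given for some genes only. On that scale 0 of the 9 genes passed 2-fold upward at 50 or 100 ng/mL, where 3.74% and 3.33% of the 12397 symbols were, and 1 gene, NQO1, was more than 2-fold lower at both doses, where 5.13% and 4.59% were. The GC-adjusted median of the 9 genes was 0.31 at the lower and 0.14 at the higher dose, beside 0.0075 and 0.0043 for all tested symbols. Whether the trend came from the cells or from the vehicle library cannot be told apart with 1 library per group.

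**Figure D2:**
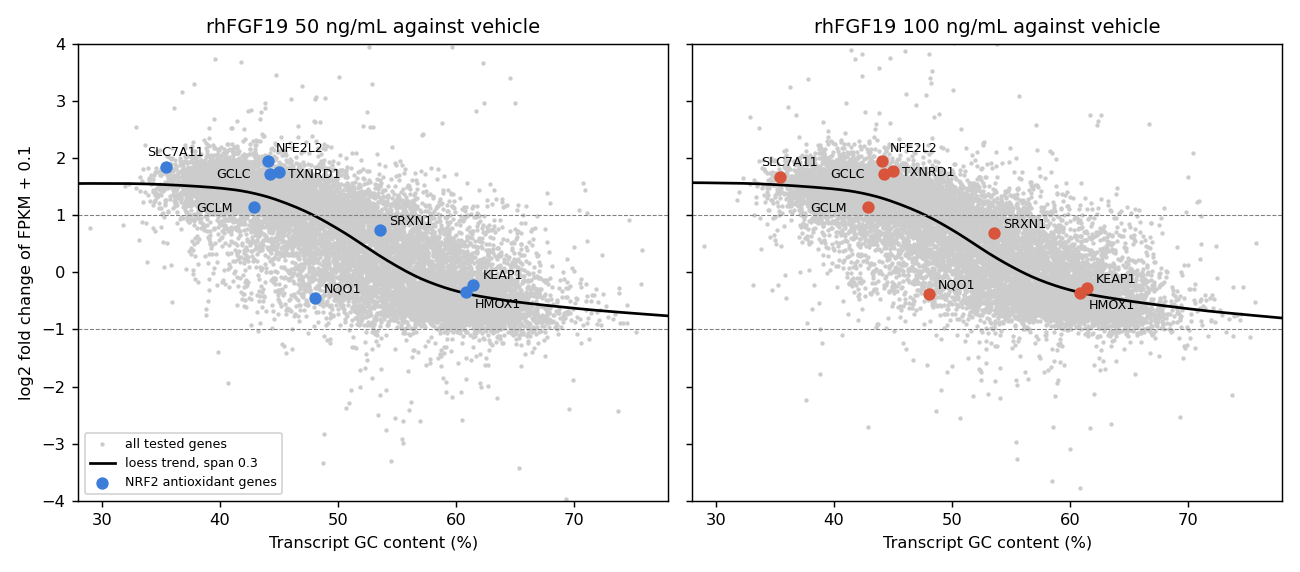
Log2 fold change of FPKM + 0.1 against vehicle (vertical axis) and transcript GC content in percent (horizontal axis) for tested symbols (grey), with the loess trend (black line), the 2-fold limits (dashed) and the NRF2 antioxidant genes (blue, 50 ng/mL; red, 100 ng/mL); 29 and 22 symbols lie beyond the axes. NFE2L2, GCLC, TXNRD1 and SLC7A11 sit above 2-fold and above the trend, GCLM sits above 2-fold but below the trend, and NQO1 sits farthest below it.

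The regulators of the pathway were listed at very unequal levels. NFE2L2 (ENSG00000116044, chr2:177227595-177287777, minus strand) had 0.79 FPKM in vehicle, 3.36 FPKM at 50 ng/mL and 3.32 FPKM at 100 ng/mL. Both rhFGF19 libraries were well above vehicle, and they were close to each other. The log2 fold changes of 1.96 and 1.94, or 3.89-fold and 3.84-fold, were the largest of the 9 genes and lay at percentiles 97.89 and 97.95 of all tested symbols. Its transcripts have a median GC content of 44.1%, where the trend at 50 ng/mL was 1.32, and the GC-adjusted log2 values were 0.64 and 0.64, at percentiles 89.81 and 90.62 and under 2-fold.

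KEAP1 (ENSG00000079999, chr19:10486125-10503356, minus strand), the cysteine sensor that presents NRF2 for degradation, had 32.66 FPKM in vehicle, 28.12 FPKM at 50 ng/mL and 26.95 FPKM at 100 ng/mL. Vehicle was the highest library, by less than 2-fold. Against vehicle its log2 values were -0.22 and -0.28, and GC-adjusted, with a transcript GC content of 61.5%, they had the opposite sign at 0.18 and 0.10. The ratio of KEAP1 to NFE2L2, both as levels per kilobase, was 41.3 in vehicle, against 8.37 and 8.12 in the 50 and 100 ng/mL libraries. In the deposited values most of that difference lay in the low NFE2L2 level in vehicle. The ratio is not GC-adjusted, and the trend at 50 ng/mL was 1.32 for NFE2L2 and -0.40 for KEAP1. After adjustment their log2 values at that dose were 0.64 and 0.18, so much of the difference in the ratio went with base composition.

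The genes with the most similar pattern were sought among symbols whose mean reached 10 FPKM, by the Euclidean distance between the pairs of log2 fold changes against vehicle, which rest on 3 libraries. For NFE2L2 the nearest 3 of 3791 symbols were HSPA8, a constitutive heat shock cognate chaperone, at a distance of 0.0274, ANLN, which encodes the actin-binding protein anillin, at 0.0304, and GDI2, a Rab GDP dissociation inhibitor, at 0.0323. HSPA8 had 98.67 FPKM in vehicle, 379.79 FPKM at 50 ng/mL and 373.53 FPKM at 100 ng/mL. In all, 14 symbols lay within 0.1 of NFE2L2. For KEAP1 the nearest were B4GAT1, SHC1 and FADS2, at distances of 0.0067, 0.00878 and 0.00975, and 186 of 3790 symbols lay within 0.1. NFE2L2 itself was under 10 FPKM in each library, so genes at its level were left out of the search. The number of neighbours is therefore not a trait of its pattern. The 3 genes nearest NFE2L2 had GC contents of 46.0%, 40.0% and 44.0%, beside 44.1% for NFE2L2. Those nearest KEAP1 had 57.9%, 56.6% and 56.1%, beside 61.5% for KEAP1.

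SLC7A11, GCLC and GCLM supply glutathione, the main small thiol of the cell, and all 3 exceeded vehicle by more than 2-fold at both doses in the deposited values. SLC7A11 (ENSG00000151012, chr4:138164097-138242349, minus strand) encodes the cystine and glutamate exchanger xCT, which brings in cystine for the synthesis of glutathione. It had 1.52 FPKM in vehicle, 5.72 FPKM at 50 ng/mL and 5.06 FPKM at 100 ng/mL. The vehicle library was the lowest, and 50 ng/mL was slightly above 100 ng/mL. The log2 fold changes were 1.85 and 1.67. With the lowest GC content of the 9 genes, 35.4%, SLC7A11 lay where the trend at 50 ng/mL was 1.54, and GC-adjusted its log2 values were 0.31 and 0.14.

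GCLC (ENSG00000001084, chr6:53497341-53616970, minus strand) encodes the catalytic subunit of glutamate-cysteine ligase, the rate-limiting enzyme of glutathione synthesis. It had 0.43 FPKM in vehicle, 1.65 FPKM at 50 ng/mL and 1.65 FPKM at 100 ng/mL, the lowest levels among the 9 genes in all 3 libraries. Rounding of the table to 2 decimals alone could move its log2 fold change by up to 0.018, and its vehicle level was under the 0.5 FPKM that the mean over libraries had to reach. The log2 fold changes were 1.72 and 1.72, and GC-adjusted, at a GC content of 44.3%, they were 0.41 and 0.43.

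GCLM (ENSG00000023909, chr1:93885199-93909456, minus strand) encodes the modifier subunit, which raises the activity of the ligase. It had 2.37 FPKM in vehicle, 5.37 FPKM at 50 ng/mL and 5.36 FPKM at 100 ng/mL, so the rhFGF19 libraries were again nearly equal and above vehicle. The log2 fold changes, 1.15 and 1.14, were past 2-fold, but at percentiles 66.33 and 67.33 of all tested symbols they were nearer the middle than those of SLC7A11 or GCLC. With the libraries scaled so that genes at 1 FPKM or more in each had a median log2 ratio to vehicle of 0, they were 0.92 and 0.93 and no longer past 2-fold. GC-adjusted, at a GC content of 42.9%, the values had the opposite sign, -0.24 and -0.22. The ratio of the modifier to the catalytic transcript, in FPKM, was 5.51 in vehicle and 3.25 in each rhFGF19 library.

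TXNRD1 and SRXN1 restore oxidized thiols with NADPH or ATP, and both had higher levels in the rhFGF19 libraries than in vehicle. TXNRD1 (ENSG00000198431, chr12:104215779-104350307, plus strand), the cytosolic selenoenzyme that reduces thioredoxin, had 10.86 FPKM in vehicle, 36.88 FPKM at 50 ng/mL and 37.54 FPKM at 100 ng/mL. The rhFGF19 libraries were close together and more than 3-fold above vehicle, with log2 fold changes of 1.75 and 1.78 at percentiles 94.06 and 95.38. GC-adjusted, at a GC content of 45.0%, the log2 values were 0.50 and 0.55. With the trend on transcript length removed instead, they were 0.95 and 0.99, under 2-fold. The span of TXNRD1 also holds RPL18AP3 on the same strand, with 170.37, 100.37 and 104.34 FPKM in vehicle, 50 and 100 ng/mL, and AC089983 on the opposite strand, with 2.03, 4.36 and 3.81 FPKM. The use of strand in the counting is not given in the sources used here, and the part of these overlaps in the TXNRD1 values was not tested. The first start of TXNRD1, start A above, is the start of the gene as listed in the table.

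SRXN1 (ENSG00000271303, chr20:646615-653200, minus strand), sulfiredoxin, reduces hyperoxidized peroxiredoxins. It had 22.09 FPKM in vehicle, 36.84 FPKM at 50 ng/mL and 35.72 FPKM at 100 ng/mL. Vehicle was the lowest library, by 1.66-fold and 1.61-fold, which did not reach 2-fold. The log2 fold changes of 0.74 and 0.69 lay near the middle of all tested symbols, at percentiles 52.68 and 52.07, and had the opposite sign, -0.048 and -0.077, with the trend on transcript length removed. GC-adjusted, at a GC content of 53.6%, they were 0.45 and 0.41, at percentiles 82.31 and 81.08.

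NQO1 and HMOX1, enzymes widely used as readouts of NRF2 activity, were not higher in the rhFGF19 libraries. NQO1 (ENSG00000181019, chr16:69706996-69726668, minus strand), which reduces quinones fully and so avoids semiquinone radicals, was by far the most abundant of the 9 genes. It had 330.76 FPKM in vehicle, 243.70 FPKM at 50 ng/mL and 254.89 FPKM at 100 ng/mL, ranks 131, 138 and 131 among all symbols. Vehicle was the highest library, and the log2 fold changes of -0.44 and -0.38 did not reach 2-fold. At its GC content of 48.0% the trend at 50 ng/mL was 0.99, so GC-adjusted the values were -1.43 and -1.35, or 2.69-fold and 2.55-fold lower, at percentiles 1.847 and 1.839 of all tested symbols.

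Abundant genes lay lower in general. The 451 symbols whose mean reached 100 FPKM, of which NQO1 was the 1 member among the 9 genes, had median log2 fold changes of -0.45 and -0.41 and GC-adjusted medians of -0.46 and -0.45. Of them, 12.2% at 50 ng/mL and 9.98% at 100 ng/mL were more than 2-fold lower after the adjustment, and 16 and 17 symbols had lower values than NQO1. With a trend on mean level removed as well, an alternative added after seeing the data, NQO1 had -0.92 and -0.87 and was under 2-fold. The position of NQO1 below the GC trend kept its direction, and its call past 2-fold did not hold on that scale.

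HMOX1 (ENSG00000100292, chr22:35380361-35390293, plus strand), haem oxygenase 1, which breaks haem down to biliverdin, carbon monoxide and iron, had 18.83 FPKM in vehicle, 14.89 FPKM at 50 ng/mL and 14.60 FPKM at 100 ng/mL. Vehicle was again the highest library, with log2 fold changes of -0.34 and -0.36. Genes of its GC content, 60.8%, had similar values, since the trend at 50 ng/mL was -0.37, and GC-adjusted HMOX1 had 0.033 and -0.013, so its sign at 50 ng/mL turned. Its percentiles after adjustment were 52.23 and 48.42, the middle of all tested symbols.

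**Figure D3:**
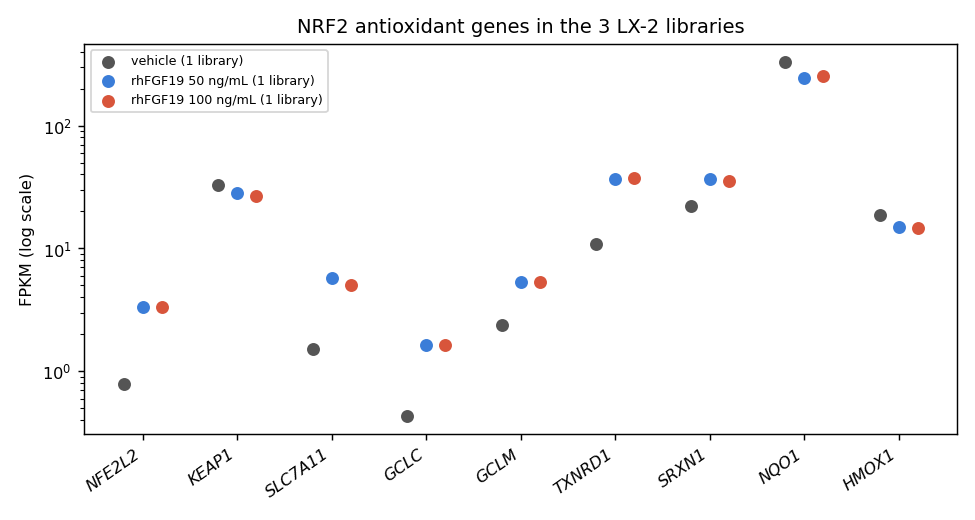
FPKM of the 9 NRF2 antioxidant genes on a log axis in the vehicle (grey), rhFGF19 50 ng/mL (blue) and rhFGF19 100 ng/mL (red) libraries, 1 point per library. NFE2L2, SLC7A11, GCLC, GCLM, TXNRD1 and SRXN1 are lowest in vehicle, KEAP1, NQO1 and HMOX1 are highest in vehicle, and the blue and red points nearly coincide.

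In each library the order of levels ran from NQO1 at the top to GCLC at the bottom, with ratios between these genes of 769 in vehicle and of 148 and 154 in the 50 and 100 ng/mL libraries. The 9 levels summed to 420 FPKM in vehicle, 377 FPKM at 50 ng/mL and 385 FPKM at 100 ng/mL. NQO1 made up 78.7%, 64.7% and 66.2% of these sums, so this gene set the order of the sums. Without NQO1 the other 8 genes summed to 89.55 FPKM in vehicle, 132.83 FPKM at 50 ng/mL and 130.2 FPKM at 100 ng/mL, with vehicle the lowest. In vehicle the order was NQO1, KEAP1, SRXN1, HMOX1, TXNRD1, GCLM, SLC7A11, NFE2L2 and GCLC. At both doses TXNRD1 came next after NQO1, ahead of SRXN1 and KEAP1, and SLC7A11 and GCLM were near each other at 50 and 100 ng/mL. With 1 library per group, no spread is available to say which neighbours in this order differ.

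**Figure D4:**
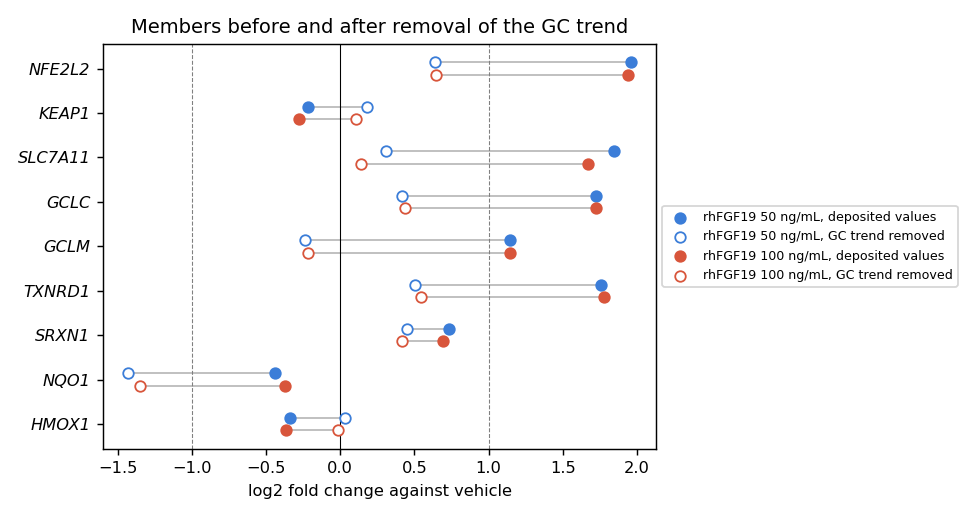
Log2 fold change against vehicle of each of the 9 genes from the deposited FPKM values (filled) and after the trend on transcript GC content was removed (open), at 50 ng/mL (blue) and 100 ng/mL (red), with dashed lines at 2-fold. The 5 genes above 2-fold all fall below it, KEAP1 and GCLM change sign at both doses, HMOX1 does so at 50 ng/mL, and NQO1 goes from -0.44 to -1.43 at 50 ng/mL.

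The doses were compared with each other to see whether the higher one gave more, the comparison that does not use the vehicle library. In all, 0 of the 9 genes were more than 2-fold apart between 100 and 50 ng/mL, where 1.64% of the 12422 tested symbols were. The largest log2 difference was that of SLC7A11, -0.17 (100 minus 50 ng/mL), and KEAP1 had -0.061, NQO1 0.065, TXNRD1 0.026 and NFE2L2 -0.017. The median absolute log2 difference of the 9 genes was 0.028, beside 0.089 for all tested symbols, whose SD was 0.32. All 9 differences were thus within 1 SD of the difference between the rhFGF19 libraries. That SD was taken over symbols of all levels in 1 pair of libraries. It is not a spread between replicates, so it cannot say whether the doses differ for these genes. GC content carried little of this comparison, with a Spearman correlation of 0.068 over 12397 symbols.

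The rest of the antioxidant system was described with 8 lists of 105 genes, of which 98 were in the table and 84 passed the filter on low values. Of these 84, 23 exceeded vehicle more than 2-fold at 50 ng/mL and 25 at the higher dose, with 22 higher at both, while 2 were lower at each dose. Over all tested symbols the shares were 39.5% and 38.6% higher and 1.75% and 1.47% lower. Their median log2 fold changes were -0.13 and -0.085, below the medians of 0.62 and 0.62 of all tested symbols. GC-adjusted, 1 and 0 of the 84 were more than 2-fold higher, where 3.74% and 3.33% of all symbols were. On that scale 9 and 9 of the 84 were lower, where 5.13% and 4.59% of all symbols were, and the medians were -0.28 and -0.26. Genes low in vehicle could pass the filter through the rhFGF19 libraries, so these counts are not support for a direction.

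Among the regulators and partners of NRF2, 4 of the 10 tested genes were higher and 0 lower at each dose. This was near the 39.5% and 38.6% of all tested symbols that were higher, while 1.75% and 1.47% were lower. GC-adjusted, 0 of the 10 were higher and 1 was lower. Of all symbols on that scale, 3.74% and 3.33% were higher and 5.13% and 4.59% lower. The 4 higher before adjustment were CUL3, the scaffold of the ubiquitin ligase that KEAP1 serves, BTRC, BACH1 and NFE2L3. BACH1, the repressor that competes with NRF2 for its elements, had 0.91 FPKM in vehicle, 3.72 FPKM at 50 ng/mL and 3.47 FPKM at 100 ng/mL. BTRC, an adaptor of another ligase that acts on NRF2, had 0.95, 3.48 and 3.14 FPKM. GC-adjusted, BACH1 had log2 values of 0.47 and 0.39, and BTRC 0.55 and 0.43. CUL3, with log2 fold changes of 1.36 and 1.22, turned to -0.17 and -0.30. These values, like those of RBX1, GSTO1, MGST2, MGST3 and CAT below, were picked after they were seen. RBX1, the ring subunit of the KEAP1 ligase, had 20.83, 16.36 and 18.44 FPKM and was the lower 1 after adjustment, at -1.61 and -1.42. NFE2L3, a relative of NRF2, had log2 fold changes of 1.14 and 1.18, which turned to -0.30 and -0.25 when GC-adjusted. MAFG, a small MAF partner, had 5.91, 10.71 and 10.08 FPKM, with log2 fold changes of 0.85 and 0.76 that stayed near that size, 0.90 and 0.80, after adjustment. NFE2L1 had 0.51 and 0.42, and SQSTM1, which competes with NRF2 for KEAP1, had -0.50 and -0.48. GC-adjusted, NFE2L1 had 0.41 and 0.31, and SQSTM1 -0.12 and -0.13.

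Of 22 tested glutathione genes, 7 were higher at each dose, and 2 were lower at 50 ng/mL and 1 at 100 ng/mL, where 39.5% and 38.6% of all tested symbols were higher and 1.75% and 1.47% lower. GSR, glutathione reductase, had 4.58 FPKM in vehicle, 10.52 FPKM at 50 ng/mL and 10.25 FPKM at 100 ng/mL. Its log2 fold changes were 1.18 and 1.15, and 0.21 and 0.18 when GC-adjusted. GPX8, a peroxidase of the endoplasmic reticulum, had log2 fold changes of 2.15 and 2.13, and 0.69 and 0.68 when GC-adjusted. GPX1, the abundant cytosolic glutathione peroxidase, went the other way, with 631.88, 310.43 and 320.77 FPKM and log2 fold changes of -1.03 and -0.98. GPX4, which reduces lipid hydroperoxides, had -0.86 and -0.92. GC-adjusted, GPX1 had -0.59 and -0.56 and GPX4 had -0.41 and -0.49, all under 2-fold. The 451 symbols averaging 100 FPKM or more, as both did, had GC-adjusted medians of -0.46 and -0.45. GGT1, picked after its values were seen, was the 1 gene of the 84 that was lower at both doses, with 6.54, 2.31 and 0.90 FPKM. It and GSTA4, picked likewise, were the 2 list genes more than 2-fold apart between the doses. GC-adjusted, 0 glutathione genes were higher, and 4 and 5 were lower. Those lower at both doses were GGT1, with log2 values of -1.06 and -2.34, MGST2, with -1.64 and -1.10, MGST3 and GSTO1. Of all symbols on that scale, 3.74% and 3.33% were higher and 5.13% and 4.59% lower.

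Of 13 tested thioredoxin and peroxiredoxin genes, 4 were higher and 0 lower at each dose. Among all tested symbols 39.5% and 38.6% were higher and 1.75% and 1.47% lower. GC-adjusted, 0 of the 13 were higher and 3 and 1 were lower. On that scale 3.74% and 3.33% of all symbols were higher and 5.13% and 4.59% lower. TXN, the thioredoxin that TXNRD1 reduces, had 74.4 FPKM in vehicle, 157.46 FPKM at 50 ng/mL and 166.88 FPKM at 100 ng/mL. The log2 fold changes, 1.08 and 1.16, turned to -0.45 and -0.37 when GC-adjusted, since its transcripts have a GC content of 35.6%. TXNIP, an inhibitor of thioredoxin, had log2 fold changes of 1.75 and 1.57, and PRDX3, the mitochondrial peroxiredoxin, had 1.64 and 1.61. PRDX5 had 826.27, 436.02 and 455.72 FPKM, with log2 fold changes of -0.92 and -0.86. TXNIP, PRDX3 and PRDX5 kept their signs after adjustment, at 0.59 and 0.43, 0.18 and 0.17, and -0.56 and -0.51.

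Of the 9 NADPH genes, 3 were higher and 0 lower at each dose, and 0 were past 2-fold when GC-adjusted. For this list and the next, the shares over all tested symbols were 39.5% and 38.6% higher and 1.75% and 1.47% lower. The GC-adjusted shares were 3.74% and 3.33% higher and 5.13% and 4.59% lower. IDH1, a cytosolic source of NADPH, had 4.23 FPKM in vehicle, 13.97 FPKM at 50 ng/mL and 13.0 FPKM at 100 ng/mL. NNT, the mitochondrial transhydrogenase, had log2 fold changes of 1.54 and 1.52. GC-adjusted, IDH1 had log2 values of 0.33 and 0.24, and NNT 0.21 and 0.21. PGLS, an enzyme of the pentose phosphate pathway, had 28.09, 18.11 and 17.11 FPKM, with log2 fold changes of -0.63 and -0.71. Its GC-adjusted values were -0.12 and -0.22. Of 13 quinone and carbonyl enzymes, 2 were higher at the lower dose, 4 at the higher, and 0 were lower. UGDH, which makes UDP-glucuronate, had log2 fold changes of 1.52 and 1.56, and PTGR1 had 0.99 and 1.04. GC-adjusted, UGDH had 0.71 and 0.75, and PTGR1 turned to -0.15 and -0.083. AKR1B1 had 169.92, 94.32 and 98.02 FPKM, with log2 fold changes of -0.85 and -0.79, and AKR7A2 had -0.91 and -0.85. GC-adjusted, 0 of the 13 were higher and 1 and 2 were lower.

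Of 9 haem and iron genes, 2 were higher and 0 lower at each dose, and 0 were past 2-fold when GC-adjusted. For this and the last lists, the shares over all tested symbols were 39.5% and 38.6% higher and 1.75% and 1.47% lower. The GC-adjusted shares were 3.74% and 3.33% higher and 5.13% and 4.59% lower. TFRC, the transferrin receptor, had 2.97 FPKM in vehicle, 10.93 FPKM at 50 ng/mL and 11.08 FPKM at 100 ng/mL. FTL, the ferritin light chain, had 8707.16, 5297.55 and 5401.1 FPKM, with log2 fold changes of -0.72 and -0.69. HMOX2, the constitutive haem oxygenase, had -0.51 and -0.50, and BLVRB had -0.82 and -0.70. Among 4 superoxide and catalase genes, 1 was higher at each dose. It was CAT, with 0.25 FPKM in vehicle, 1.71 FPKM at 50 ng/mL and 1.51 FPKM at 100 ng/mL, and it was the 1 gene of the 84 still more than 2-fold higher when GC-adjusted at 50 ng/mL, at 1.13, against 0.98 at 100 ng/mL. SOD1 had 87.41, 97.43 and 102.31 FPKM, and SOD2, the mitochondrial enzyme, had log2 fold changes of 0.83 and 0.76. Both SOD1 and SOD2 had negative GC-adjusted values, -0.64 and -0.56 for SOD1 and -0.11 and -0.17 for SOD2. Of 4 oxidant source genes, 0 were higher and CYBA, the p22-phox subunit, was lower at 100 ng/mL, with 80.71, 43.48 and 39.75 FPKM. RAC1, a small GTPase, had log2 fold changes of 0.87 and 0.92, and 0.14 and 0.21 when GC-adjusted. On that scale 0 of the 4 were past 2-fold.

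**Figure D5:**
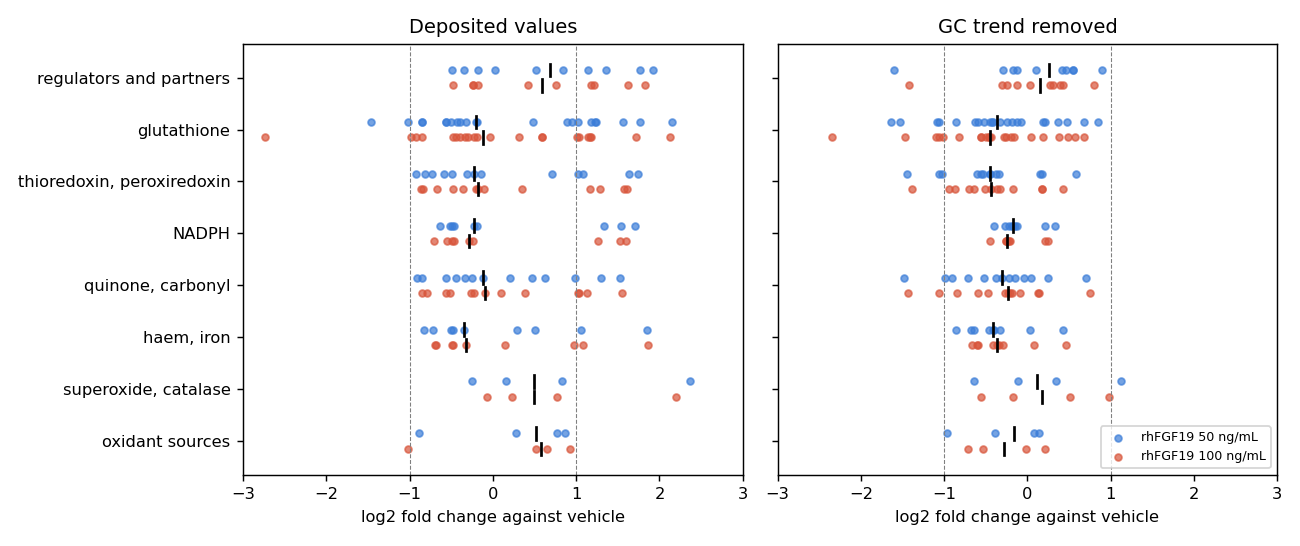
Log2 fold change against vehicle of the 84 tested genes of 8 antioxidant lists, 1 row per list, from the deposited values (left) and with the GC trend removed (right), at 50 ng/mL (blue) and 100 ng/mL (red); black bars are list medians and dashed lines 2-fold. At 50 ng/mL 23 points lie above 2-fold on the left and 1 on the right, and the points more than 2-fold lower go from 2 to 9.

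The cells were checked against marker lists. Of 14 stellate markers, 12 were in the table and 8 passed the filter, and the listed markers summed to 824 FPKM in vehicle and 991 FPKM in each rhFGF19 library, led by VIM with 438.65, 654.31 and 648.66 FPKM. TAGLN, the next most abundant in vehicle, had 222.65 FPKM there and 118.02 and 125.65 FPKM at 50 and 100 ng/mL, and THY1 had 29.71, 20.6 and 21.13 FPKM, both highest in vehicle. ACTA2 had 8.55, 8.01 and 7.74 FPKM. COL1A1 was lowest in vehicle, with 78.35 FPKM against 107.83 and 104.14 FPKM, while LRAT, the enzyme of vitamin A storage, was listed at 0 in all 3 libraries, DES was at 0 in vehicle and at 50 ng/mL, and COL1A2 was at most 0.14 FPKM. The sums of other lists were 11.39 to 12.63 FPKM for 8 hepatocyte markers, mostly SERPINA1, 1.0 to 1.26 FPKM for 5 epithelial, 3.17 to 5.29 FPKM for 3 leukocyte and 0.74 to 1.06 FPKM for 5 endothelial markers. In bulk RNA, fewer cells with a transcript and less of it per cell cannot be told apart. All FPKM values summed to 302243 in vehicle, and to 276690 and 281606 in the 50 and 100 ng/mL libraries. In the same order 8891, 10929 and 10905 symbols had at least 1 FPKM, so vehicle had the fewest symbols above that level. The 12 housekeeping genes had median log2 fold changes of 0.068 and 0.082, with 2 of them more than 2-fold higher at each dose. Among all tested symbols 39.5% and 38.6% were higher. GC-adjusted, the housekeeping medians were -0.40 and -0.31, with 0 higher and 2 (PPIA and PGK1, named after their values were seen) more than 2-fold lower. Of all symbols on that scale, 5.13% and 4.59% were lower.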

How the data were processed

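Total RNA of LX-2 cells was poly(A)-selected and sequenced as paired ends on an Illumina HiSeq instrument. HISAT2 was the mapper the authors used, and the values they deposited are FPKM per gene to 2 decimals. Their methods describe logCPM, which is not what the deposited table holds. The submitters' processing notes name HISAT2 2.0, StringTie 1.3.0, Bowtie 0.12.2 and the builds mm8 and hg19, with no roles, whereas 99.9% of the 25531 identifiers found in GENCODE 29 overlapped their GRCh38 position. The coordinates given are those of the table. Whole reads could not be recovered from the values, so the depth per sample and its precision are unknown.

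Rows sharing a symbol were summed, and log2(FPKM + 0.1) was compared between the 3 single libraries for symbols averaging 0.5 FPKM or more. A symbol was counted past 2-fold when the log2 fold change exceeded 1 in size, the study's criterion, and no p-values were computed. GC content and length were medians over the transcripts listed for a gene, from GENCODE 29, and trends were removed by loess with a span of 0.3. On simulated libraries of 12397 genes at 50 ng/mL, 100% of 200 genes changed 4-fold passed 2-fold and 0 unchanged genes did. With an imposed GC trend 4725 unchanged genes passed, and 0 after its removal. The simulated noise was smaller than the SD of 0.32 between the rhFGF19 libraries and did not grow at low levels. The imposed trend was a straight line. These counts therefore check the code, and do not give the rate of false calls in the real libraries.

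The members and lists were chosen with earlier results of these data known. From each wider list the up to 4 genes averaging 5 FPKM or more and the largest absolute averaged log2 fold change were named, and genes outside that rule are said to be so. The values of 2 genes that the rule names are not reported here. Results were recomputed under 13 alternatives, and under 3 more added after seeing the data. Python 3.11.15, NumPy 2.4.6, pandas 2.3.3, SciPy 1.17.1, statsmodels 0.14.6 and matplotlib 3.10.9 were used.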

Additional observations from a re-analysis of the deposited data

How the results depend on the processing

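Counts of genes past 2-fold depended on the scaling, and apart from the centring named here the cause was not tested. The median log2 fold change of all genes at 50 ng/mL was 0.62 as deposited, 0.77 with TPM, 0.56 with the housekeeping median set to 0, 0.40 with the median ratio set to 0, 0.10 after quantile normalization, 0.046 after removal of the length trend and 0.0075 after removal of the GC trend, and changes of sign under the last 3 are relative to these. No paired analysis was possible because each group has 1 library. In pairs of values below, the first is at 50 ng/mL and the second at 100 ng/mL.

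With a pseudocount of 1, 3 and 3 of the 9 genes and 13 and 13 genes of the wider lists were higher. With TPM, 1 and 1 list genes were lower. With the median ratio set to 0, 4 and 4 of the 9 genes were higher, since GCLM had 0.92 and 0.93, 16 and 13 list genes were higher, and 10 and 9 were lower. With quantile normalization, 3 and 2 of the 9 genes and 10 and 8 list genes were higher, 4 list genes were lower at 50 ng/mL, and the median of the 9 genes at 100 ng/mL was 0.79. With the housekeeping median set to 0, 4 list genes were lower at 100 ng/mL. At a 1.5-fold threshold, 13 and 13 list genes were lower.

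With the GC trend removed, 0 and 0 of the 9 genes were higher and 1 and 1 lower, 1 and 0 list genes higher and 9 and 9 lower, and the medians of the 9 genes were 0.31 and 0.14. KEAP1 turned to 0.18 and 0.10, GCLM to -0.24 and -0.22 and HMOX1 to 0.033 at 50 ng/mL. With the length trend removed, 2 and 2 of the 9 genes, NFE2L2 and GCLC, and 10 and 9 list genes were higher. On that scale 15 and 15 list genes were lower, the medians of the 9 genes were 0.32 and 0.33, and SRXN1 turned to -0.048 and -0.077. TXNRD1, with 0.95 and 0.99, SLC7A11, with 0.69 and 0.55, and GCLM, with 0.32 and 0.33, were under 2-fold. With both trends removed, 0 and 0 of the 9 genes were higher, 1 and 1 lower, 1 and 1 list genes higher and 6 and 7 lower, with medians of 0.26 and 0.18. KEAP1 turned to 0.26 and 0.18, GCLM to -0.37 and -0.35 and HMOX1 to 0.093 and 0.051.

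The other alternatives were chosen after seeing the data. With the GC content of the longest transcript, 0 and 0 of the 9 genes were higher, 1 and 1 lower, 3 and 1 list genes higher and 10 and 9 lower, with medians of 0.35 and 0.18, KEAP1 at 0.13 and 0.052 and GCLM at -0.33 and -0.32. HMOX1 kept its negative sign on that scale, at -0.12 and -0.16. With the GC trend fitted on protein-coding genes, 0 and 0 were higher, 1 and 1 lower, 1 and 0 list genes higher and 11 and 10 lower, with medians of 0.30 and 0.14, KEAP1 at 0.20 and 0.13, GCLM at -0.27 and -0.26 and HMOX1 at 0.048 and 0.0091. With GC and mean level trends removed, 0 and 0 of the 9 genes were higher, 1 and 0 list genes higher and 7 and 8 lower, with medians of 0.34 and 0.28, KEAP1 at 0.36 and 0.28, GCLM at -0.35 and -0.33 and HMOX1 at 0.10 and 0.054. Over all settings run, NFE2L2 ranged from 0.52 to 2.17 at 50 ng/mL and from 0.52 to 2.13 at 100 ng/mL. NQO1 ranged from -1.53 to -0.073 at 50 ng/mL and from -1.44 to 0.0 at 100 ng/mL, where quantile normalization left no difference from vehicle.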
